A study of Cucumis melo with 18 samples.

Results

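The orange-fleshed melon inbred line B-14 was compared with itself at 2 stages, 30 days after pollination (DAP), called 3_14, and 10 DAP, called 1_14. The comparison takes in 6 of the 18 RNA-seq libraries of the series, 3 of 3_14 and 3 of 1_14, chosen by the line and stage in the sample labels. The other 12 libraries are those of B-14 at 45 DAP (4_14) and of the white-fleshed line B-6 at 30 (3_6), 10 (1_6) and 45 DAP (4_6). The flesh of B-14 turns from green to orange as the fruit matures and that of B-6 from green to white. Fruits of both lines were greenhouse-grown, hand-pollinated and untreated. Each replicate is described as flesh of a fruit from a separate plant, so that every library is a different fruit and no fruit was followed over time. Each line is a single inbred genotype, and a B-14 result is that of this genotype. The labels name the tissue blade, whereas the study's methods name fruit flesh. No identifier is paired with a marker of flesh, rind, seed or leaf in the sources used, so the tissue was not checked against markers.

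Carotenoids are made in plastids from geranylgeranyl pyrophosphate, which phytoene synthase turns into colourless phytoene and a series of desaturases and isomerases turn into red lycopene. Cyclases then make the orange β-carotene or, on the other branch, the precursors of lutein, and cleavage of the downstream xanthophylls starts the synthesis of the hormone abscisic acid (ABA). Chlorophyll shares the same geranylgeranyl precursor for its tail and takes its ring from the tetrapyrrole pathway, and ripening flesh of orange melons usually loses chlorophyll while it gains β-carotene.

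Each library of the comparison held between 21331019 and 22193469 counts, and between 18046 and 18921 genes had a count in a library. Levels are CPM (counts scaled to the library total) with TMM scaling, 3 counts in a library were taken as the floor, and this floor lay between 0.127 and 0.139 CPM in the 6 libraries. CPM are not corrected for gene length, so levels are compared between libraries and not between genes. In bulk flesh, fewer cells of a type and less RNA per cell cannot be told apart. Between replicates of a group, 35.6% to 59.6% of the genes compared differed by more than binomial sampling allows in 5%, so no library was a repeat of another.

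A library of each group stood apart from the other 2. In replicate 3 of 3_14, 448 of 14504 genes with a mean of at least 1 CPM lay more than 2-fold above both other replicates and 79 more than 2-fold below. These counts were 34 and 42 in replicate 1 and 30 and 12 in replicate 2 of 3_14. In replicate 2 of 1_14, 397 of 15436 genes lay above and 352 below both others, against 80 and 44 in replicate 1 and 21 and 50 in replicate 3. Both libraries therefore differed from their partners for many genes, replicate 3 of 3_14 mainly upward and replicate 2 of 1_14 in both directions. The shares of genes above or below were 3.63% and 4.85%. Other groups of the series also held such libraries, with 3.43% in replicate 1 of 4_6 and 2.12% in replicate 2 of 4_14. Across genes, which are not independent replicates, Pearson's r of log2 CPM was 0.992 between replicates 1 and 2 of 3_14 and 0.975 and 0.978 between each of them and replicate 3. It was 0.970 to 0.971 between replicate 3 and the libraries of B-6 at the same stage. Genes that separated the lines at least 8-fold at both 10 and 45 DAP were used to check its line. All 16 such genes lay nearer to the other B-14 libraries than to those of B-6 in replicate 3, with median levels of 3.86 log2 CPM for 11 B-14 genes and -2 for 5 B-6 genes, a level of 0 counts.

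**Figure D1:**
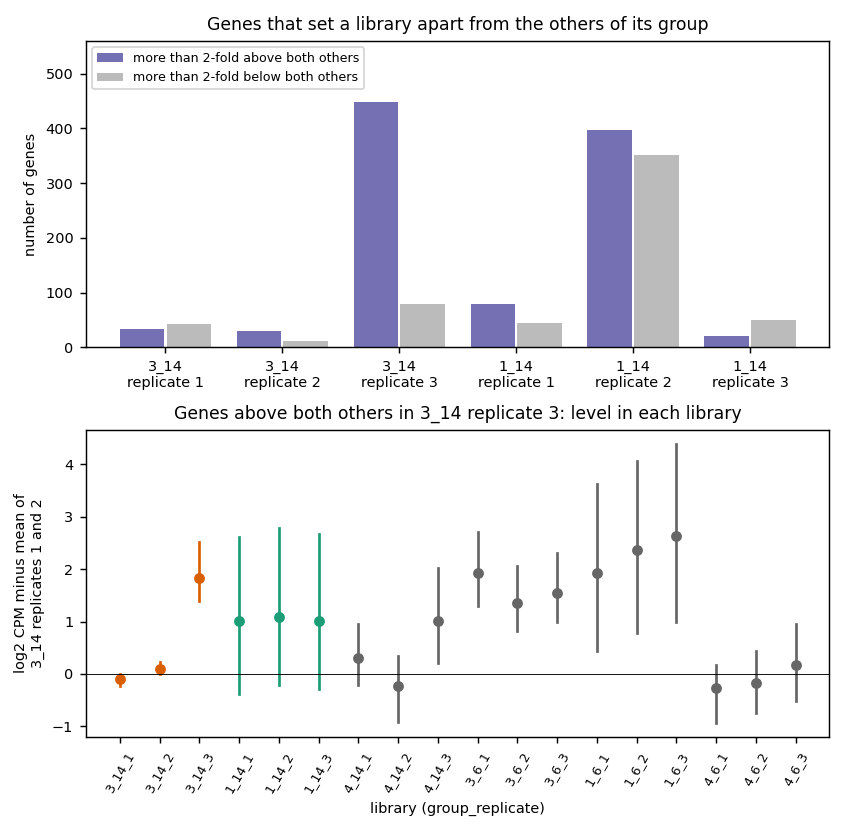
The upper bars count genes more than 2-fold above (purple) or below (grey) both other libraries of the group, for the 3 libraries of 3_14 and then of 1_14. The lower plot follows the 448 genes that were above in replicate 3 of 3_14, as the median (point) and the interquartile range of genes (line) of log2 CPM relative to the mean of replicates 1 and 2 of 3_14, in all 18 libraries. The genes were chosen on replicate 3, where the median was 1.83, and the medians of the 3_6 libraries were 1.93, 1.36 and 1.54.

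The 448 genes were compared with replicates 1 and 2 of 3_14 in all groups. These 2 replicates were low for the genes by choice, so higher levels elsewhere follow in part from the choice. Relative to them, the median of the 448 genes was 1.36 to 1.93 log2 units higher in the libraries of 3_6, 1.92 to 2.63 higher in 1_6 and 1.01 to 1.08 higher in 1_14. At 45 DAP the medians of 4_14 and 4_6 lay between -0.28 and 1.01, highest in replicate 3 of 4_14. Of these genes, 443 were tested, and 91 were called higher and 110 lower at 30 DAP with all 6 libraries. Without replicate 3, 60 were called higher and 217 lower. Since the genes were chosen for their level in replicate 3, the shift towards lower calls follows from the choice. Of the genes from the study's lists, 11 were among them, namely 9 transcription factors, HEMA2 and XTH22. Results that rest on either library are given with and without it, and what set these fruits apart was not tested.

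Between 30 and 10 DAP a large part of the transcriptome of B-14 changed. Of 22394 genes in the table, 16514 passed the count filter and were tested with edgeR's quasi-likelihood F test. With the adjusted p no higher than 0.05 and at least a 2-fold change, 6973 genes (42.2% of those tested) were called, 3090 of them higher (18.7%) and 3883 lower (23.5%) in 3_14. The decreases were also larger, with a median log2 fold change of -2.60 among genes that fell and 1.75 among those that rose, while the median over all tested genes was -0.002. At least 16-fold changes numbered 340 among the genes that rose and 1190 among those that fell. A further contrast lay in detection. No library of 3_14 held more than 3 counts of 543 genes that had 10 or more in every library of 1_14, and the opposite held for 138 genes. For 6947 of the 6973 called genes, the libraries of 3_14 and 1_14 did not overlap. Non-overlap of a called gene named below therefore adds little to its call, and outside the carotenoid list it was part of the rule for naming.

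The libraries that stood apart moved these totals little. Without replicate 3 of 3_14, 7149 genes were called, of which 6653 had the same call as with all libraries, and without replicate 2 of 1_14 there were 7029, with 6578 the same. With both left out, 7175 were called and 6543 were the same.

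**Figure D2:**
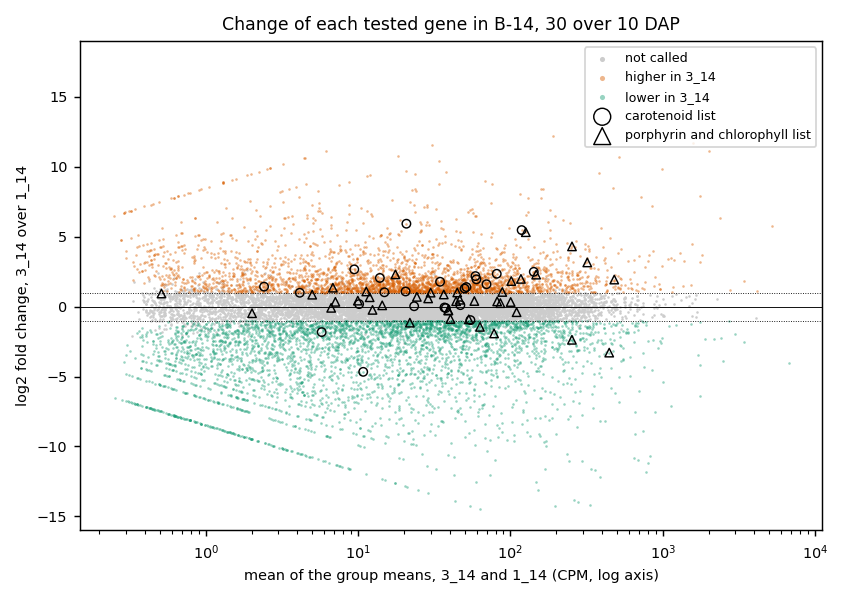
Each of 16514 tested genes of B-14 by its mean level (CPM, log axis) and its log2 fold change, 3_14 over 1_14, with dotted lines at 2-fold. Orange genes were called higher (3090) and green genes lower (3883) in 3_14, and black circles and triangles mark the carotenoid and the porphyrin and chlorophyll lists. The straight rays at low levels are genes with no or few counts in a group, whose fitted values depend on the prior count.

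Genes were then followed by role, in lists that the study itself had drawn up from these samples, so that the number of calls in a list is not independent evidence of its direction. The carotenoid list is partial, since the study counts more such genes than it names. Of its 25 genes, 24 were tested, and 15 rose, 2 fell and 7 were not called. That is 70.8% of those tested, against 42.2% of all genes, and the median log2 fold change of the list was 1.34, against -0.002 over all genes. The study's table behind the list holds genes that it found to differ in its comparisons, this one included. A share above that of all genes therefore follows in part from the choice. Without replicate 3 of 3_14, 16 rose and 3 fell, and without replicate 2 of 1_14 it was 13 and 3. Each step that leads to β-carotene held a listed gene that rose, whereas listed genes downstream of the cyclases were divided.

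Geranylgeranyl pyrophosphate synthase (GGPS, MELO3C020952.2), which makes the common precursor, had 163, 131 and 113 CPM in 3_14, against 29.01, 30.8 and 21.4 CPM in 1_14 (log2 fold change 2.34, standard error 0.198, adjusted p = 6.51e-05). Phytoene synthase (PSY, MELO3C025102.2), the entry enzyme of the pathway, had 311, 197 and 188 CPM in 3_14, against 4.58, 5.44 and 5.88 CPM in 1_14 (log2 fold change 5.47, standard error 0.265, adjusted p = 7.99e-06), the second largest rise of the list. In both genes every library of 3_14 lay well above every library of 1_14, with replicate 1 highest at 30 DAP. The other gene annotated as PSY (MELO3C016185.2) was low at both stages, with 6.07, 5.16 and 5.22 CPM in 3_14 and 4.03, 2.17 and 2.22 CPM in 1_14. Its log2 fold change of 0.99 (adjusted p = 0.0185) stopped just short of 2-fold, and it reached 1.03 without replicate 2 and 1.03 without replicate 3 of 3_14, and 1.34 without replicate 1 of 1_14. It was 0.83 without replicate 2 of 1_14, and 0.86 without that library and replicate 3 of 3_14 together. The gene was called in 6 of 16 alternatives, with adjusted p from 0.00329 to 0.0638 over all of them.

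All 7 listed genes of the desaturation and isomerization steps rose. Phytoene desaturase, which introduces the first double bonds, is represented by a pair of genes. PDS (MELO3C017772.2) had 299, 247 and 178 CPM in 3_14, against 43.7, 49.8 and 37.7 CPM in 1_14 (log2 fold change 2.48, standard error 0.219, adjusted p = 7.95e-05). The other PDS gene (MELO3C020832.2) had 16.9, 14.5 and 17.5 CPM in 3_14, against 3.07, 2.03 and 2.73 CPM in 1_14, a log2 fold change of 2.66 (standard error 0.194). Both copies rose, with every library of 3_14 above those of 1_14. ζ-Carotene isomerase (Z-ISO, MELO3C017709.2) had 25.97, 22.5 and 18.5 CPM in 3_14, against 4.62, 7.24 and 4.54 CPM in 1_14 (log2 fold change 2.05, standard error 0.24, adjusted p = 2.88e-04). ζ-Carotene desaturase (ZDS, MELO3C024674.2), the next enzyme, had 109, 95.6 and 80.3 CPM in 3_14, against 28.1, 24.5 and 22.03 CPM in 1_14 (log2 fold change 1.95, standard error 0.151, adjusted p = 4.52e-05). For PDS (MELO3C017772.2), Z-ISO and ZDS, replicate 1 was the highest and replicate 3 the lowest library of 3_14, and none overlapped with 1_14.

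Carotenoid isomerase (CRTISO), which converts prolycopene to lycopene, has 3 annotated genes, and reads shared between near-identical copies could not be told apart here. MELO3C009571.2 had 78, 74.3 and 60.2 CPM in 3_14, against 30.02, 30.2 and 27.8 CPM in 1_14, a log2 fold change of 1.29. MELO3C016373.2 had 55.4, 56.2 and 48.4 CPM in 3_14, against 20.04, 12.2 and 15.2 CPM in 1_14, with 1.77. MELO3C016495.2 had 34.8, 24.5 and 23.8 CPM in 3_14, against 11.5, 15.2 and 13.2 CPM in 1_14, with 1.08 (adjusted p = 0.00235). All 3 were higher at 30 DAP in each library, but the last fell below 2-fold without replicate 1 of 3_14 (0.88) and without replicate 1 of 1_14 (0.98).

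Both cyclases rose. Lycopene β-cyclase (LCY1, MELO3C020744.2), which makes β-carotene, had 86.4, 74.3 and 62.1 CPM in 3_14, against 29.4, 29.6 and 26.8 CPM in 1_14 (log2 fold change 1.39, standard error 0.141, adjusted p = 1.47e-04). Lycopene ε-cyclase (LUT2, MELO3C004633.2), which directs lycopene towards lutein, was low, with 4.74, 3.38 and 2.41 CPM in 3_14 and 1.01, 0.876 and 2.08 CPM in 1_14 (log2 fold change 1.42, standard error 0.429, adjusted p = 0.0215). The margin between its groups was narrow, and the call of LUT2 was lost without replicate 1 of 3_14 (log2 fold change 1.15, adjusted p = 0.0746) and without replicate 1 (1.26, adjusted p = 0.0696) or 2 (1.2, adjusted p = 0.0534) of 1_14. Over all 16 alternatives its adjusted p lay between 0.0061 and 0.0746.

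Among the genes of hydroxylation and xanthophylls, 1 rose, 1 fell and 2 were not called. CYP97C1 (MELO3C024495.2), a carotene hydroxylase of the lutein branch, had 98.5, 97.98 and 92.9 CPM in 3_14, against 19.7, 20.2 and 24.7 CPM in 1_14, and its replicates were close together at both stages (log2 fold change 2.18, standard error 0.118, adjusted p = 1.17e-05). The gene annotated as capsanthin/capsorubin synthase (CCS, MELO3C017963.2), an enzyme of red xanthophylls in pepper, had 2.84, 2.03 and 2.68 CPM in 3_14, against 9.61, 5.21 and 12.3 CPM in 1_14 (log2 fold change -1.83, standard error 0.342, adjusted p = 0.00268). CYP97A3 (MELO3C014945.2), the partner hydroxylase, had 33.5, 40.5 and 33.6 CPM in 3_14, against 40.3, 33.3 and 40.4 CPM in 1_14, and the groups overlapped (log2 fold change -0.07, adjusted p = 0.653). Violaxanthin de-epoxidase (VDE1, MELO3C008677.2) also overlapped, at 11.9, 10.6 and 9.67 CPM in 3_14 and 10.5, 5.12 and 13.2 CPM in 1_14, where replicate 2 was lowest.

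Of the 9 genes of cleavage and of ABA and strigolactone metabolism, 8 were tested, 3 rose and 1 fell. NCED2 (MELO3C007127.2) and NCED6 (MELO3C023086.2) encode 9-cis-epoxycarotenoid dioxygenases, which commit xanthophylls to ABA. NCED2 had 42.6, 33.8 and 46.2 CPM in 3_14, against 0.412, 0.738 and 0.879 CPM in 1_14, the largest rise of the list (log2 fold change 5.92, standard error 0.275, adjusted p = 6.76e-06). NCED6 had 86.9, 105 and 121 CPM in 3_14, against 37.4, 35.3 and 32.2 CPM in 1_14 (log2 fold change 1.6, standard error 0.137, adjusted p = 7.04e-05). The second gene annotated as NCED2 (MELO3C002744.2) was not tested, with at most 0.169 CPM in any library of 3_14 and 0.184 CPM in any of 1_14. Carotenoid cleavage dioxygenase 4 (CCD4, MELO3C016224.2), which breaks carotenoids down to volatile products, had 21.2, 18.5 and 19.9 CPM in 3_14, against 12.4, 6.41 and 10.97 CPM in 1_14 (log2 fold change 1.02, standard error 0.238, adjusted p = 0.00727). Its change just passed 2-fold and fell below it in 8 of 16 alternatives, among them those without replicate 1 of 3_14 (0.97) and without replicate 2 of 1_14 (0.79). With all libraries it did so under RLE factors, DESeq2, limma voom, the stricter count filter and the fit of all 18 libraries, at 0.95 to 0.99.

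The later ABA genes showed no call. ABA2 (MELO3C005129.2), xanthoxin dehydrogenase, had 46.6, 46.1 and 52.2 CPM in 3_14 and 63.8, 17.3 and 55.8 CPM in 1_14, so that its replicate 2 at 10 DAP stood alone (log2 fold change 0.1, adjusted p = 0.843). The aldehyde oxidases AAO3 (MELO3C014716.2), the last enzyme of ABA synthesis in Arabidopsis, and AAO2 (MELO3C014719.2) had log2 fold changes of 0.02 and -0.11. CYP707A2 (MELO3C016219.2), an ABA hydroxylase that inactivates the hormone, spread widely, with 17.8, 31.98 and 60.5 CPM in 3_14 and 93.8, 34.95 and 89.1 CPM in 1_14. Its log2 fold change of -0.97 (adjusted p = 0.131) became -1.51 without replicate 3 of 3_14 and -1.29 without replicate 2 of 1_14, both past the threshold, with adjusted p-values from 0.00115 to 0.322 over the 16 alternatives. CYP711A1 (MELO3C016879.2), an oxidase of strigolactone synthesis, fell the most, with 0.6204, 0.804 and 0.999 CPM in 3_14, against 16.7, 26.3 and 19.5 CPM in 1_14 (log2 fold change -4.67, standard error 0.274, adjusted p = 1.56e-05).

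**Figure D3:**
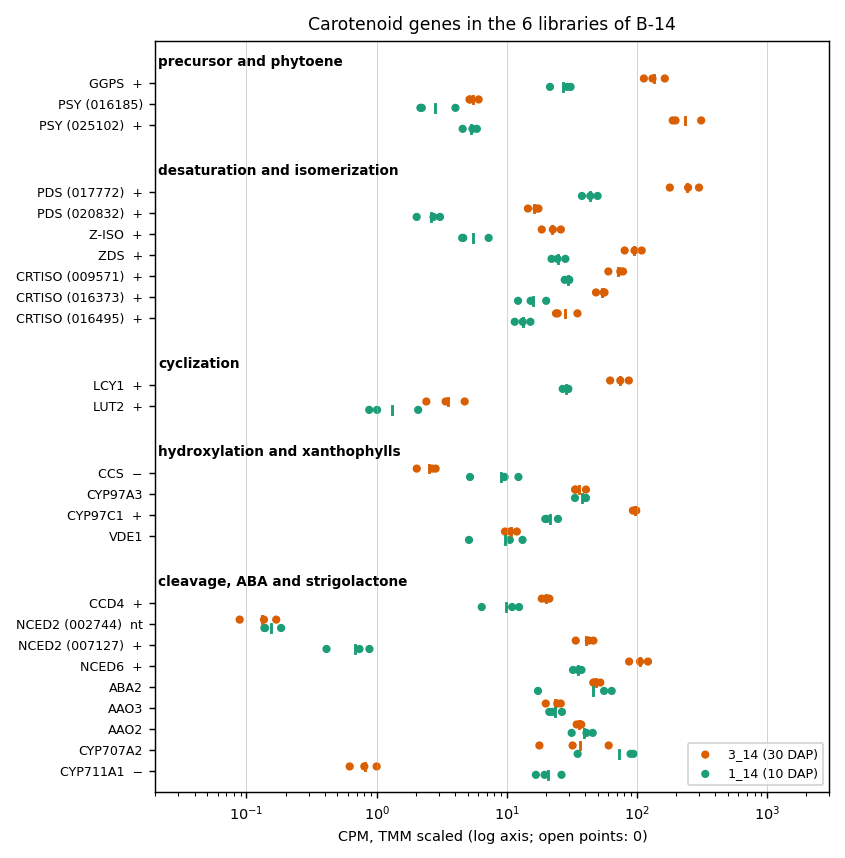
Levels (CPM, log axis) of the 25 carotenoid genes in the 3 libraries of 3_14 (orange, upper row of each gene) and of 1_14 (green, lower row), with the group mean as a bar. Plus and minus signs mark the 15 genes called higher and the 2 called lower in 3_14, nt marks the gene not tested, and genes that share a symbol carry digits of their identifier.

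Of 42 porphyrin and chlorophyll genes, 41 were tested, and 12 rose, 4 fell and 25 were not called. This share of 39.0% was close to the 42.2% over all genes, and the list's median log2 fold change was 0.42. The counts of calls differed between the roles of the list, which was not tested. In the chlorophyll branch 7 of 12 tested genes rose and none of these 12 fell, with a median of 1.41. The untested gene of the branch, CHLH1, is given below. In the early tetrapyrrole steps 1 of 13 rose and 3 fell, with a median of -0.24. Replicate 2 of 1_14 lay more than 2-fold below both other replicates for CRD1, CAO, CHLP (MELO3C017176.2) and the PORA gene MELO3C013592.2, and the changes of the 7 genes that rose were smaller without it.

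The H subunit of magnesium chelatase (CHLH, MELO3C023131.2), which holds the porphyrin at the entry to the chlorophyll branch, had 317, 214 and 208 CPM in 3_14, against 7.002, 4.84 and 6.94 CPM in 1_14 (log2 fold change 5.32, standard error 0.256, adjusted p = 7.86e-06). This was the largest change among the tested genes of the list, and its replicates at 10 DAP lay close together. CRD1 (MELO3C026802.2), a subunit of the cyclase that forms the fifth ring, had 703, 529 and 491 CPM in 3_14, against 82.3, 30.02 and 84.1 CPM in 1_14 (log2 fold change 3.15, standard error 0.409, adjusted p = 4.69e-04), and 2.81 without replicate 2 of 1_14. Chlorophyllide a oxygenase (CAO, MELO3C010614.2), which makes chlorophyll b, had 281, 224 and 228 CPM in 3_14, against 59.2, 29.4 and 64.2 CPM in 1_14 (log2 fold change 2.28, standard error 0.295, adjusted p = 4.63e-04), and 2.01 without that replicate. Geranylgeranyl reductase (CHLP, MELO3C017176.2), which makes the phytyl tail from the precursor shared with carotenoids, had 235, 169 and 156 CPM in 3_14, against 65.7, 19.2 and 59.4 CPM in 1_14 (log2 fold change 1.98, standard error 0.441, adjusted p = 0.0060), and 1.6 without replicate 2 of 1_14.

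The other 3 genes of the branch that rose were the chelatase subunit CHLI (MELO3C007233.2, log2 fold change 1.82), a protochlorophyllide reductase annotated as PORA (MELO3C016714.2, 1.93) and chlorophyll synthase (CHLG, MELO3C026000.2, 1.01), whose call was lost without replicate 2 of 1_14 (0.89). The D subunit of the chelatase did not share the rise of its partners. CHLD (MELO3C014571.2) had 39.6, 31.6 and 34.01 CPM in 3_14, against 47.2, 36.1 and 46.4 CPM in 1_14, which overlapped (log2 fold change -0.28, adjusted p = 0.115). The other uncalled genes of the branch were CHLM, a methyltransferase, DVR, which reduces a vinyl group, the PORA gene MELO3C013592.2 and a second CHLP gene (MELO3C014712.2), with log2 fold changes of 0.58, -0.09, 0.85 and -0.48. A second H subunit gene, CHLH1 (MELO3C002961.2), had no counts in any library of 3_14 and 0.503, 0.415 and 0.555 CPM in 1_14. It was at least 3.72-fold lower in 3_14 by the floor per library, and was not tested with all 6 libraries. Without replicate 3 of 3_14, without replicate 2 of 1_14 and without both, it passed the filter and was called lower. Its log2 fold changes there, -6.46, -6.57 and -6.57, depend on the prior count.

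In the early tetrapyrrole steps, glutamyl-tRNA reductase, the first committed enzyme, is encoded by a pair of listed genes. HEMA1 (MELO3C011113.2) had 146, 106 and 103 CPM in 3_14, against 64.3, 37.9 and 72.7 CPM in 1_14 (log2 fold change 1.04, standard error 0.26, adjusted p = 0.00971), and its change fell below 2-fold without replicate 1 of 3_14 (0.87) or replicate 2 of 1_14 (0.81). HEMA2 (MELO3C018565.2) had 9.62, 10.4 and 77.4 CPM in 3_14, against 130.2, 108 and 133 CPM in 1_14. All 3_14 libraries of HEMA2 were below those of 1_14, but replicate 3 was far above its partners, and the log2 fold change of -1.92 (adjusted p = 0.0655) became -3.6 (adjusted p = 1.28e-05) without it.

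Each of the 3 genes that fell in these steps did so evenly. A glutamate-tRNA ligase (At5g26710, MELO3C015227.2) had 91.4, 83.3 and 70.3 CPM in 3_14, against 765, 698 and 966 CPM in 1_14 (log2 fold change -3.29, standard error 0.185, adjusted p = 1.33e-05). The other listed glutamate-tRNA ligase, OVA3 (MELO3C015693.2), was not called, with a log2 fold change of 0.49. Which of these ligases serves the tetrapyrrole pathway was not tested, so the fall of At5g26710 is not shown to be a fall of its first step. Coproporphyrinogen oxidase (CPX, MELO3C016226.2), which oxidizes the ring precursor, had 89.9, 78.7 and 74.8 CPM in 3_14, against 344, 455 and 479 CPM in 1_14 (log2 fold change -2.38, standard error 0.169, adjusted p = 3.24e-05). The protoporphyrinogen oxidase POX2 (MELO3C008208.2), the next enzyme, had 15.3, 12.99 and 12.1 CPM in 3_14, against 29.8, 30.4 and 30.7 CPM in 1_14, a log2 fold change of -1.15. Its relative POX1 (MELO3C005189.2) had 39.7 ± 1.71 CPM in 3_14 and 20.2 ± 8.14 CPM in 1_14 (SD, n = 3 each) and a log2 fold change of 0.99, on the other side of 0 and just short of 2-fold (adjusted p = 0.0163).

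The other 7 genes of these steps, which include OVA3 and the enzymes that build the ring, were not called, with log2 fold changes of -0.4 (glutamate-1-semialdehyde aminotransferase, GSA) to 0.86 (porphobilinogen deaminase, HEMC).

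In the heme and bilin branch, 1 of 7 genes was called. HY2 (MELO3C029500.2), the synthase of the phytochrome chromophore, had 9.44, 9.603 and 10.4 CPM in 3_14, against 3.89, 4.06 and 3.703 CPM in 1_14 (log2 fold change 1.35, standard error 0.15, adjusted p = 2.25e-04), while the 6 others had log2 fold changes between -0.91 for the ferrochelatase HEMH and 0.69 for heme oxygenase HO1.

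Genes of chlorophyll breakdown changed in both directions, with 3 of 9 higher and 1 lower. NYC1 (MELO3C025347.2), the chlorophyll b reductase that starts the conversion of chlorophyll b to a, had 551, 413 and 484 CPM in 3_14, against 27.4, 23.01 and 24.02 CPM in 1_14 (log2 fold change 4.3, standard error 0.158, adjusted p = 3.37e-06). HCAR (MELO3C006358.2), which completes that conversion, had 33.02, 24.5 and 30.02 CPM in 3_14, against 6.54, 4.43 and 7.04 CPM in 1_14 (log2 fold change 2.3, standard error 0.211, adjusted p = 9.44e-05). Both reductases were separated from 10 DAP in every library, whereas the related NOL (MELO3C019918.2) had a log2 fold change of 0.34 (adjusted p = 0.108). Pheophorbide a oxygenase (PAO), which opens the ring, has 3 annotated genes, of which MELO3C035546.2 had 13.5, 14.4 and 18.1 CPM in 3_14, against 4.58, 8.899 and 8.47 CPM in 1_14 (log2 fold change 1.08, standard error 0.274, adjusted p = 0.0105). The call of this PAO gene was the only one among listed genes that ended without replicate 3 of 3_14 (0.96), and it also ended without replicate 1 of 1_14 (0.84). Of the 2 neighbouring identifiers of red chlorophyll catabolite reductase (RCCR), the enzyme after PAO, MELO3C020913.2 fell to 34.8, 33.8 and 31.9 CPM in 3_14, against 112, 69.5 and 96.97 CPM in 1_14 (log2 fold change -1.45, standard error 0.173, adjusted p = 3.12e-04), and MELO3C020912.2 had a log2 fold change of 0.24 (adjusted p = 0.203).

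**Figure D4:**
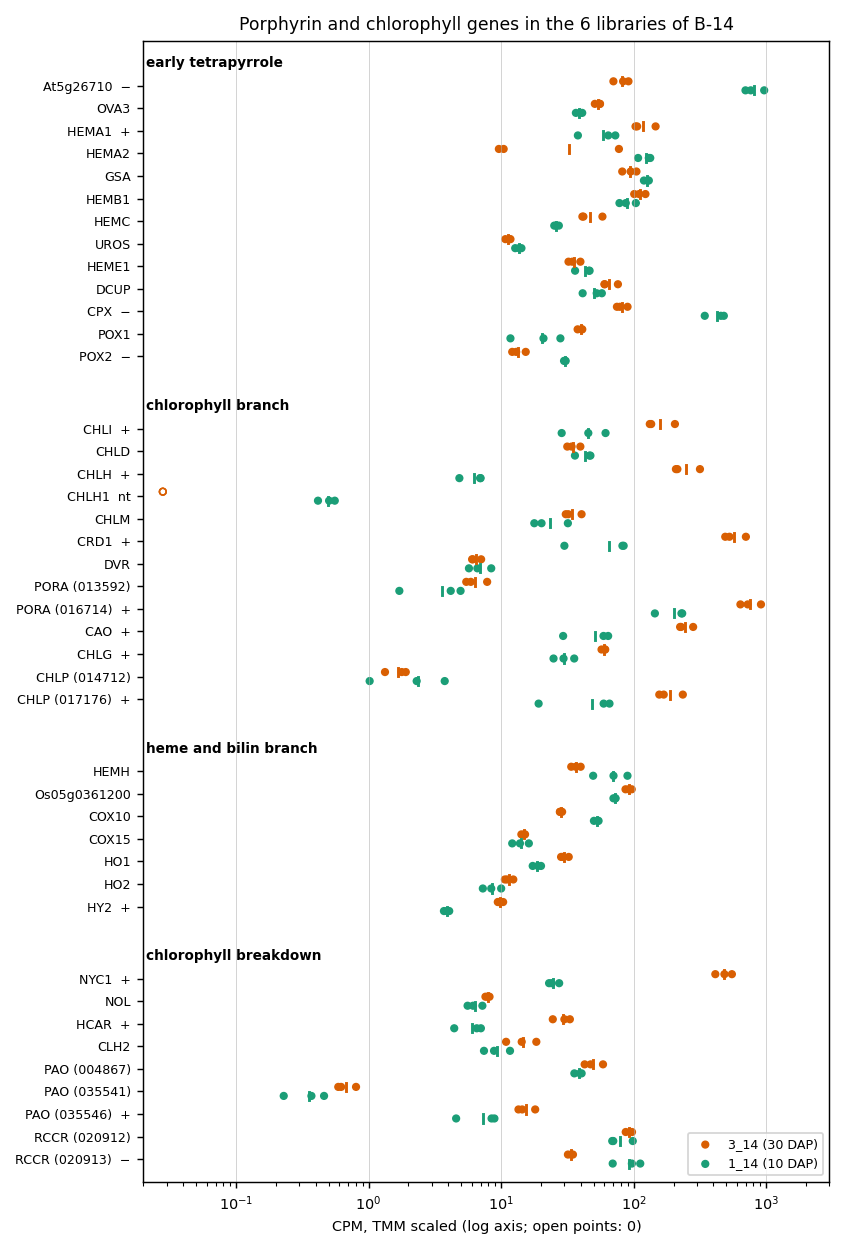
Levels (CPM, log axis) of the 42 porphyrin and chlorophyll genes in the 3 libraries of 3_14 (orange, upper row of each gene) and of 1_14 (green, lower row), with the group mean as a bar and open points for 0 counts. Plus and minus signs mark the 12 genes called higher and the 4 called lower in 3_14, and nt the gene not tested. HEMA2 shows replicate 3 of 3_14 at 77.4 CPM, apart from 9.62 and 10.4 CPM.

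The study's list of transcription factors was drawn mainly from the difference between the lines at 45 DAP, and 35 of its 40 genes were tested here. Of these, 8 rose and 12 fell (57.1% called, against 42.2% of all genes), the median log2 fold change was -0.58, and without replicate 3 of 3_14 the genes that fell numbered 16. Of the 6 ethylene response factors (ERF) tested, 2 rose and 3 fell. LEP (MELO3C005088.2), named after LEAFY PETIOLE of Arabidopsis, had 7.53, 8.799 and 11.2 CPM in 3_14, against 0.183, 0 and 0.0926 CPM in 1_14, a log2 fold change of 6.57, but was listed by the study for comparisons that include this one. ERF106 (MELO3C005466.2) had 5.94, 4.4 and 6.72 CPM in 3_14, against 125, 303 and 131 CPM in 1_14, and ERF061 (MELO3C005747.2) had 1.02, 0.804 and 1.91 CPM in 3_14, against 45.2, 27.7 and 34.5 CPM in 1_14. ERF106 fell by 5.03 on the log2 scale (-4.48 without replicate 2 of 1_14, where it was highest) and ERF061 by 4.83. CRF6 (MELO3C011671.2) was at or below the floor in each library of 3_14, with 1.56, 1.57 and 2.45 CPM in 1_14, and was at least 14.1-fold lower in 3_14. The fifth called gene of this family, ERF039 (MELO3C013926.2), rose by 3.97.

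Among the NAC factors all 5 tested genes were called. NAC73 (MELO3C002628.2), whose Arabidopsis namesake acts in secondary wall formation, had 35.5, 33 and 35.9 CPM in 3_14, against 5.45, 12.6 and 8.1 CPM in 1_14 (log2 fold change 2.01, standard error 0.292, adjusted p = 8.09e-04). NAC21/22 (MELO3C010555.2) had 10.5, 14.3 and 13.7 CPM in 3_14, against 2.197, 5.12 and 2.13 CPM in 1_14, a log2 fold change of 2.04 with all libraries and 2.59 without replicate 2 of 1_14. NAC92 (MELO3C022002.2), named after a leaf senescence factor of Arabidopsis, had 0.355, 0.719 and 0.409 CPM in 3_14, against 3.52, 1.75 and 3.15 CPM in 1_14, a log2 fold change of -2.47. The pair NAC2 (MELO3C010632.2) and NAC55 (MELO3C016536.2) fell despite replicate 3. NAC2 had 6.03, 8.46 and 55.2 CPM in 3_14, against 370.2, 523 and 551 CPM in 1_14, and its log2 fold change was -4.37 with and -6.03 without replicate 3 of 3_14. NAC55 had 85.1, 58.9 and 176 CPM in 3_14, against 449, 419.6 and 397 CPM in 1_14, with -1.97 and -2.52.

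Of the WRKY factors, 2 of 8 were called, both lower. MELO3C017743.2, annotated as WRKY75, had no counts in any library of 3_14, against 5.17, 10.9 and 11.3 CPM in 1_14, and was at least 69.2-fold lower. The WRKY24 gene MELO3C009127.2 had 6.12, 6.22 and 19.2 CPM in 3_14, against 39.04, 75.7 and 49.8 CPM in 1_14, a log2 fold change of -2.38 with and -3.13 without replicate 3 of 3_14. The 2 other genes annotated as WRKY75, a regulator of leaf senescence in Arabidopsis, were not called, at 15.2 ± 2.49 CPM in 3_14 and 18.7 ± 2.73 CPM in 1_14 for MELO3C008175.2 and at 1.15 ± 0.431 and 0.983 ± 0.153 CPM for MELO3C014896.2 (SD, n = 3 each). Among the other families, the heat shock factor HSF24 (MELO3C007560.2) had 7.53, 7.11 and 27.02 CPM in 3_14, against 395, 519 and 498 CPM in 1_14, a log2 fold change of -5.07 with and -5.98 without replicate 3 of 3_14. The MADS-box gene MADS13 (MELO3C033521.2) rose by 1.5, MYB48 (MELO3C020701.2) by 1.56 and bHLH71 (MELO3C003421.2) by 2.9 (2.54 without replicate 2 of 1_14). MYB63 (MELO3C034877.2), a lignin regulator in Arabidopsis, fell by 3.25, bHLH162 (MELO3C002608.2) by 3.43 and bZIP43 (MELO3C005173.2) by 1.44.

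The call of bZIP4 (MELO3C010788.2) was weak. It had 3.24, 1.69 and 0.863 CPM in 3_14, against 0.503, 0.784 and 0.787 CPM in 1_14 (log2 fold change 1.49, standard error 0.53, adjusted p = 0.0395), with replicate 3 of 3_14 close to 10 DAP. Leaving out any library other than that replicate ended the call, with log2 fold changes of 0.9 and 1.59 without replicates 1 and 2 of 3_14 and of 1.31, 1.59 and 1.6 without replicates 1, 2 and 3 of 1_14, and the adjusted p lay between 0.0096 and 0.143 over 16 alternatives.

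Replicate 3 of 3_14 decided several factors that were not called with all libraries, and these were singled out after their values were seen. MYB73 (MELO3C016789.2) had 24.2, 34.3 and 151 CPM in 3_14, against 155, 84.9 and 171 CPM in 1_14. The ethylene response factor ERF1B (MELO3C006430.2) had 1.55, 2.07 and 18.2 CPM in 3_14, against 20.6, 51.6 and 23.5 CPM in 1_14. The WRKY24 gene MELO3C020489.2 had 40.4, 38.2 and 242 CPM in 3_14, against 186, 248 and 179 CPM in 1_14. In each of them replicate 3 lay at or near the level of 10 DAP and the other 2 fruits well below, and without it their log2 fold changes of -0.97, -2.13 and -0.93 became -2.2, -4.11 and -2.35, all called lower. A smaller case was bHLH149 (MELO3C015253.2), with -0.62 and -1.29 without that library. MYBS3 (MELO3C024440.2), with 27.9, 30.4 and 270.3 CPM in 3_14 and 18.2, 26.6 and 30.1 CPM in 1_14, was high only in replicate 3, and its log2 fold change of 2.14 (adjusted p = 0.0686) became 0.25 without it. In bHLH35 (MELO3C017424.2) the same library had 25.6 CPM, against 4.697 and 6.09 CPM in its partners, and in MYB12 (MELO3C034933.2) it had 0.409 CPM, against 3.37 and 1.69 CPM.

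The 17 genes that the study lists as leading this comparison were picked on the same contrast, so their changes are given as a description without a test. Of these genes 4 were higher and 13 lower in 3_14, beside 18.7% higher and 23.5% lower over all genes, and their median log2 fold change was -6.40. The largest increase was that of a type 3 metallothionein (MELO3C016513.2), a metal-binding protein, with 721, 993 and 1092 CPM in 3_14, against 2.38, 3.14 and 2.45 CPM in 1_14, a log2 fold change of 8.47. The vacuolar cation/proton exchanger CAX3 (MELO3C003294.2), a relative of vacuolar calcium transporters, had 3702, 3670.5 and 3204 CPM in 3_14, against 16.2, 16.1 and 11.7 CPM in 1_14, with 7.93. PILS6 (MELO3C025264.2), of a family of auxin carriers, had 5259, 4390.4 and 4332 CPM in 3_14, against 71.3, 54.3 and 54.4 CPM in 1_14, with 6.3. The 3_14 libraries of each lay within a narrow range. CDC48 (MELO3C026279.2), an ATPase that extracts ubiquitinated proteins, had a log2 fold change of 3.52.

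Among the 13 genes that were lower, those with the lowest log2 fold changes acted in lipids and cell walls or carried a methyltransferase annotation. A stearoyl-ACP desaturase (MELO3C008413.2), which makes oleic acid, had 0.931, 0.635 and 0.454 CPM in 3_14, against 1232, 1648 and 1954 CPM in 1_14, a log2 fold change of -11.2. The xyloglucan endotransglucosylase XTH5 (MELO3C026755.2), which remodels cell walls, had 0.931, 0.677 and 0.363 CPM in 3_14, against 1594, 1469 and 1079 CPM in 1_14, with -11.00. A methyltransferase annotated as CRG1 (MELO3C012305.2) had 1.06, 0.465 and 0.545 CPM in 3_14, against 1041, 1499 and 1332 CPM in 1_14, with -10.84. All 3_14 libraries were near or below 1 CPM for these 3 genes and the 1_14 libraries far above, with no overlap. Sucrose synthase (MELO3C015552.2), which cleaves sucrose in growing sinks, had 44.98, 40.2 and 36.8 CPM in 3_14, against 3216, 4032 and 3168 CPM in 1_14, with -6.4.

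The other cell wall and apoplast genes that were lower were the blue copper protein umecyanin (MELO3C004455.2), with 8.73, 8.21 and 11.9 CPM in 3_14, against 1994, 1647 and 1646 CPM in 1_14, the germin-like protein 5-1 (MELO3C004143.2, log2 fold change -6.83) and the 21 kDa protein (MELO3C006821.2, -3.91). The respiratory burst oxidase RBOHB (MELO3C015312.2), which makes superoxide, had 1.11 ± 0.141 CPM in 3_14 and 153 ± 5.01 CPM in 1_14, and ribonuclease RNS1 (MELO3C012099.2) had 4.64 ± 0.516 and 557 ± 33.1 CPM (SD, n = 3 each). Signalling genes that were lower were calmodulin-3 (MELO3C026342.2, -5.06), WRKY15 (MELO3C007576.2, -5.95) and the F-box protein At2g44130 (MELO3C009596.2, -6.18), and the nucleoside transporter ENT3 (MELO3C007334.2) had a log2 fold change of -6.8.

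A further 31 genes lead the study's comparisons of 4_14 with 4_6 or with 1_14, and the second of these shares its 1_14 libraries with the present one. Of the 30 tested, 11 rose and 10 fell (70.0% called, against 42.2% of all genes), with a median log2 fold change of 0.495. Genes that lead the comparison of 4_14 with 1_14 were picked in part on the libraries used here. Their calls and adjusted p-values, among them those of LHT1, FAO1 and the acyl-ACP desaturase, and the share of 70.0% are therefore a description only. The amino acid transporter LHT1 (MELO3C014857.2) had 1.15, 1.48 and 1.59 CPM in 3_14, against 649, 422 and 575 CPM in 1_14 (log2 fold change -8.58, standard error 0.255, adjusted p = 2.27e-06). The transporter ABCB11 (MELO3C008741.2) had 5.41, 12.3 and 4.63 CPM in 3_14, against 543, 529 and 491 CPM in 1_14, and replicate 2 of 3_14 was highest there. The xyloglucan endotransglucosylase XTH22 (MELO3C017480.2) had 17.99, 34.2 and 89.6 CPM in 3_14, against 2141, 1662 and 2054 CPM in 1_14. XTH22 was high in replicate 3, and its log2 fold change was -5.36 with and -6.2 without that library. The cyclic nucleotide-gated channel CNGC1 (MELO3C014477.2) had 0, 0.254 and 0 CPM in 3_14, against 2.97, 44.7 and 3.43 CPM in 1_14. The size of its fall depended on replicate 2 of 1_14, with log2 fold changes of -7.51 with and -5.09 without it, and it was called lower in both cases.

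Lipid genes changed in both directions. The alcohol oxidase FAO1 (MELO3C006405.2) had 82.6, 64.9 and 68.8 CPM in 3_14, against 2.79, 1.71 and 1.99 CPM in 1_14 (log2 fold change 5.07, standard error 0.21, adjusted p = 4.99e-06). An acyl-ACP desaturase (MELO3C010739.2), of the same annotated family as the stearoyl-ACP desaturase that fell, had 4175, 3085 and 2837 CPM in 3_14, against 301, 242 and 244 CPM in 1_14 (log2 fold change 3.7, standard error 0.22, adjusted p = 1.62e-05). SFR2 (MELO3C021253.2), which remodels plastid galactolipids, rose by 2.92, and the enoyl-CoA isomerase ECI1 (MELO3C025448.2) fell by 3.51. All 3 genes of secondary metabolism rose, namely the flavonoid 3'-monooxygenase F3'H (MELO3C025797.2, 1.88), the malonyltransferase PMAT1 (MELO3C020676.2, 1.59) and β-amyrin synthase (MELO3C002943.2, 3.69), which makes a triterpene.

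A light-sensor protein kinase (MELO3C005737.2) had 21.9, 18.3 and 32.6 CPM in 3_14, against 0.641, 1.24 and 0.602 CPM in 1_14 (log2 fold change 4.87, standard error 0.364, adjusted p = 3.92e-05). The vacuolar sorting receptor VSR6 (MELO3C007003.2) rose by 3.65, the metal-binding protein HIPP07 (MELO3C008010.2) by 2.6 and the helicase DExH8 (MELO3C017959.2) by 1.28. The dirigent protein DIR20 (MELO3C014666.2) rose by 1.6 (adjusted p = 0.015), a call lost without replicate 3 of 1_14 (1.51, adjusted p = 0.058, and 0.00064 to 0.058 over 16 alternatives). Genes that fell were the AAA-ATPase AATP1 (MELO3C021479.2, -4.59), the receptor-like kinase CRK2 (MELO3C010681.2, -3.69), TTL3 (MELO3C010417.2, -3.24) and acid phosphatase 1 (MELO3C005493.2, -2.61).

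Outside the lists the identifiers carry no annotation in the sources used, and the 2 that rose and the 2 that fell with the smallest p-values are given by identifier alone. MELO3C022181.2 had 46.8, 45.98 and 45.6 CPM in 3_14, against 0.275, 0.323 and 0.278 CPM in 1_14, and MELO3C000631.2 had 45.03, 43.5 and 42.9 CPM in 3_14, against 0.275, 0.231 and 0.231 CPM in 1_14. MELO3C011116.2 had 0.266, 0.212 and 0.272 CPM in 3_14, against 110.3, 122 and 113 CPM in 1_14, and MELO3C015962.2 had 0.576, 0.719 and 0.636 CPM in 3_14, against 231, 193 and 192 CPM in 1_14. These 4 genes were picked for the smallest p-values, a choice that favours close replicates and large changes. That their replicates differed little beside changes of more than 16-fold, 2 upward and 2 downward, is therefore a description only.

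Whether a change was particular to B-14 was tested against B-6 at the same stages, in 12 libraries. The change differed between the lines for 3737 of 17135 genes (21.8%), being more positive in B-14 for 1986 and more negative for 1751. Of 6627 genes called in B-14 and tested in both lines, 4603 were called in the same direction in B-6 and 90 in the opposite direction. The share of all genes called in B-6 is not given here, so the 4603 have no background beside them. The change differed between the lines for 2087 of the 6627, beside 21.8% of all genes. Of these 2087, 1079 were also among the 4603. The 6627 genes were picked for their change in B-14, which favours a difference from B-6. The 2 lines share no library, so these counts set independent fruits side by side.

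Of the 25 carotenoid genes, 13 differed, with 10 more positive and 3 more negative in B-14, beside 21.8% of all genes, of which 1986 were more positive and 1751 more negative. Comparisons between the lines were among those on which the study picked the list. PSY (MELO3C025102.2) rose by 5.47 in B-14, against 2.13 in B-6, a difference of 3.31 (adjusted p = 9.89e-06). Its levels were 161, 155 and 144 CPM in 3_6 and 30.4, 35.7 and 39.2 CPM in 1_6, so that every B-14 library was above those of B-6 at 30 DAP and below them at 10 DAP. NCED2 (MELO3C007127.2) rose by 5.92 in B-14, against 2.03 in B-6. LUT2 rose by 1.42 in B-14 and fell by 1.65 in B-6, a difference of 3.03 (adjusted p = 0.00175). Z-ISO and the PDS gene MELO3C020832.2 rose by 2.05 and 2.66 in B-14, against 0.46 and 1.14 in B-6, and GGPS by 2.34, against 1.08. In the opposite sense, AAO2 had a log2 fold change of -0.11 in B-14 and rose by 2.08 in B-6, and NCED6 and CCD4 rose by 1.6 and 1.02 in B-14, against 2.62 and 2.001 in B-6. The differences of NCED6 and CCD4 missed 2-fold without some of the libraries, as -0.95 to -0.995 and -0.84 to -0.98.

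In the porphyrin and chlorophyll list, 10 of 42 genes differed, 9 of them more positive in B-14, a share near the 21.8% over all genes. The chlorophyll branch held 5 of these. CHLH rose by 5.32 in B-14, against 3.49 in B-6, and CRD1 by 3.15, against 1.64. The methyltransferase CHLM (MELO3C026160.2) had a log2 fold change of 0.58 in B-14 and fell by 1.48 in B-6 (difference 2.03, adjusted p = 2.83e-04). RCCR (MELO3C020913.2) fell by 1.45 in B-14 and had -0.01 in B-6. NYC1 rose in both lines, by 4.3 in B-14 and 3.19 in B-6, a difference of 1.07 that missed 2-fold without replicate 1 of 3_14 or of 3_6 (0.96 to 0.998).

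**Figure D5:**
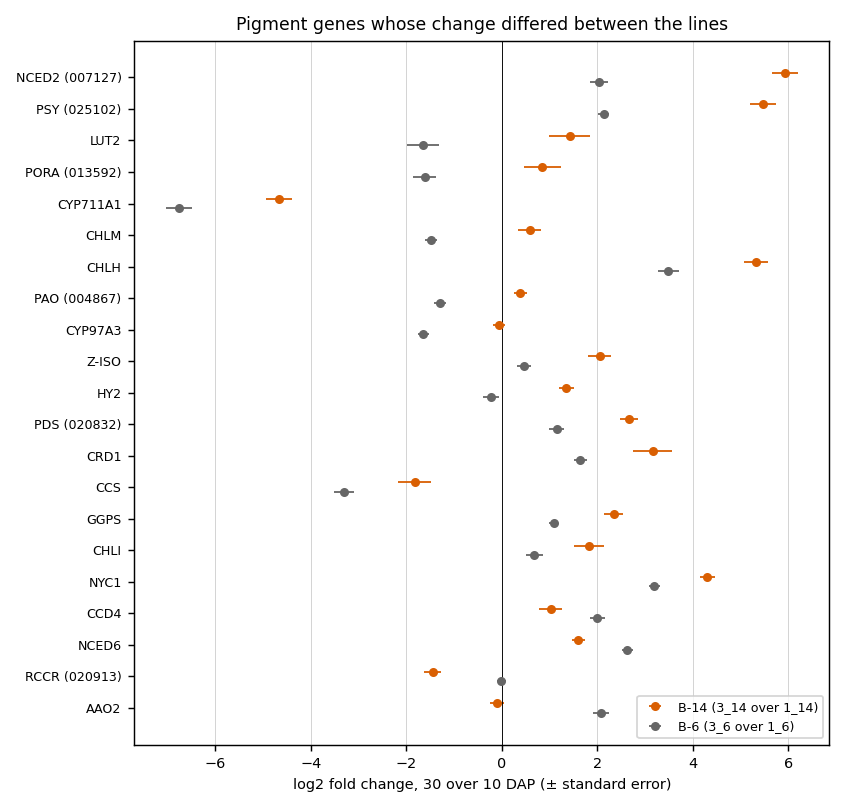
Log2 fold change, 30 over 10 DAP, with its standard error, in B-14 (orange, above) and in B-6 (grey, below) for the 21 pigment genes tested in both lines whose change differed between them. Genes are ordered by the difference. NCED2 and PSY are at the top, with a larger rise in B-14, and AAO2, which rose in B-6, is at the bottom.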

How the data were processed

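RNA from fruits of B-14 and B-6 was made into TruSeq Stranded mRNA libraries and sequenced in paired ends by the authors, who trimmed the reads with Trimmomatic and aligned them to the melon genome with HISAT2. The deposited values are counts per gene without normalization. The counting program and its strand setting, the versions, the genome build and the annotation are not given in the sources used here, so genes that overlap or are near-identical copies may share reads. Gene symbols are the study's. Lists are its tables of porphyrin and chlorophyll (42) and transcription factor genes (40) and of genes leading this (17) or other comparisons (31). The carotenoid list (25) is its carotenoid table and VDE1, which the study names elsewhere, and is partial, since the study counts more carotenoid genes than it names. The members and lists were chosen with earlier results of these data known.

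The 6 libraries were fitted in R 4.3.3 with edgeR 4.0.16 (TMM, filterByExpr, quasi-likelihood F test, Benjamini-Hochberg adjustment), calling genes with an adjusted p no higher than 0.05 and at least a 2-fold change. The same test of the line by stage interaction used 12 libraries, and the change in B-6 was fitted on its own 6, so that the difference between the lines can deviate slightly from that of the separate changes. Printed CPM use TMM factors over all 18 libraries. Log2 CPM for the comparison of replicates has a pseudocount of 0.25. Folds against a group at or below 3 counts per library are lower bounds, which cover counting error only.

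Named genes are all carotenoid genes and, per role of the other lists, up to 4 called genes with the largest change and no overlap between groups, with those whose call ends without replicate 3 of 3_14. Other genes were named after their values were seen. The alternatives were RLE factors, library size alone, DESeq2 1.42.0, limma 3.58.1 voom with quality weights, 2 other count filters, all 18 libraries, a replicate block, unadjusted p-values and leaving out each library. The fits were tested on simulated data.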

Additional observations from a re-analysis of the deposited data

Results flagged for a closer look

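For 55 genes named by the rule or on the carotenoid or the porphyrin and chlorophyll list, the change between 30 and 10 DAP differed between B-14 and B-6. This was seen in the test of line by stage, which drew attention to them. Over all genes tested, 3737 of 17135 (21.8%) differed. The study drew its lists from these same samples, some of them on differences between the lines, so the count of 55 is not evidence about the lists. The values are the log2 change in B-14 minus that in B-6, so that a positive value means a change more positive in B-14. Genes of the leading list of this same comparison were picked for their change in B-14, and for them the difference is a description.

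Of the carotenoid genes, PSY (MELO3C025102.2) differed by 3.31, NCED2 (MELO3C007127.2) by 3.86, LUT2 by 3.03, Z-ISO by 1.55, PDS (MELO3C020832.2) by 1.48 and GGPS by 1.23. CYP97A3, with 1.55, was called lower in B-6 (-1.65) and not in B-14 (-0.07), and CCS (1.46) and CYP711A1 (2.07) fell by less in B-14. Negative differences were those of CCD4 (-1.01), NCED6 (-1.06) and AAO2 (-2.22). The second NCED2 gene (MELO3C002744.2), with 6.37, was near the floor at both stages of B-14, so that its fitted difference is no measure of size.

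In the porphyrin and chlorophyll list, the differences were 1.79 for CHLH, 2.03 for CHLM, 1.48 for CRD1, 1.11 for CHLI and 2.43 for the PORA gene MELO3C013592.2. HY2 had 1.55, NYC1 had 1.07, the PAO genes MELO3C004867.2 and MELO3C035541.2 had 1.65 and 3.42, and RCCR (MELO3C020913.2) had -1.48. The PAO gene MELO3C035541.2 was below 1 CPM in all 6 libraries of B-14.

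Among transcription factors, ERF061 differed by 4.13, bHLH71 by 1.51 and NAC2 by -3.06. ERF061 fell in both lines and by less in B-14.

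Transport and ion genes with a more positive change in B-14 were CAX3 (5.76), PILS6 (1.17) and VSR6 (1.44), and those with a more negative one were LHT1 (-3.86), ABCB11 (-1.34) and CNGC1 (-5.56). In the cell wall and apoplast group, umecyanin had 1.9 and DIR20 2.06, while the germin-like protein 5-1 had -2.81, XTH5 -2.8 and XTH22 -3.83. CAX3 rose in both lines, by 7.93 in B-14 and 2.13 in B-6.

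Sugar and lipid genes differed by -2.28 (sucrose synthase), -5.55 (stearoyl-ACP desaturase, MELO3C008413.2), -2.19 (ECI1) and 1.39 (FAO1). In stress and salvage the values were 2.42 for the metallothionein, -2.71 for RNS1, -4.75 for CRG1, -2.34 for AATP1 and -2.2 for acid phosphatase 1. Signalling and protein turnover gave 1.01 for calmodulin-3, 1.2 for DExH8 and 4.61 for the light-sensor protein kinase, and -1.92 for At2g44130, -2.21 for WRKY15 and -2.83 for TTL3. In secondary metabolism, F3'H differed by 2.57, PMAT1 by -1.13 and β-amyrin synthase by -5.63, which rose in both lines, by 3.69 in B-14 and 9.28 in B-6.

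Some of these calls ended when 1 of the 12 libraries was left out. The difference of CHLI (0.87 to 1.17 where it ended) did so without replicate 1 of 3_14, replicates 1 or 2 of 1_14, any replicate of 3_6 and replicates 1 or 2 of 1_6. That of the PAO gene MELO3C035541.2 (2.06 to 3.67) ended without any library of 3_14 or 1_14, replicates 1 or 2 of 3_6 and replicate 2 of 1_6. CCD4 (-0.84 to -0.98) depended on replicate 2 of 3_14, replicates 1 and 3 of 1_14, replicate 3 of 3_6 and replicates 1 and 3 of 1_6, and calmodulin-3 (0.87 to 0.997) on replicate 2 of 3_14, replicate 3 of 1_14, replicates 2 and 3 of 3_6 and replicates 1 and 3 of 1_6. NCED6 (-0.95 to -0.995) depended on replicate 1 of 3_14, replicate 3 of 3_6 and replicate 2 of 1_6. ABCB11 (-1.14 to -1.26) and DIR20 (1.6 to 1.82) depended on replicate 1 of 3_14, of 3_6 and of 1_6, NYC1 (0.96 to 0.998) on replicate 1 of 3_14 and of 3_6, and bHLH71 (1.25 to 1.43) on replicate 3 of 3_6 and replicate 1 of 1_6. CNGC1 (-5.02 to -5.02) depended on replicates 1 and 3 of 3_14, and PMAT1 (-0.93) on replicate 2 of 1_14. With all libraries kept, the difference of umecyanin was not called in the fit of all 18 libraries (1.87, adjusted p = 0.178), nor was that of CCD4 or calmodulin-3. With limma voom, FAO1 (1.18, adjusted p = 0.0664), bHLH71, ABCB11, CHLI and CNGC1 were not called. CCD4 also missed the threshold with RLE factors, DESeq2, the stricter filter and the replicate block, CHLI and calmodulin-3 with library size alone, and the PAO gene MELO3C035541.2 with library size alone, without the filter and with the block. Under the stricter filter, both NCED2 genes, that PAO gene, XTH5, β-amyrin synthase and CNGC1 were not tested.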

How the results depend on the processing

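With all 6 libraries, 6973 genes were called, and the other settings gave 5124 (at least 10 counts in every library) to 7496 (all 18 libraries in 1 fit), or slightly more when every gene with a count was tested, all within 1.5 times. Leaving out 1 library gave 6876 to 7149, and leaving out both libraries that stood apart, an alternative chosen after their spread was seen, gave 7175. The count for the lines was 3737 and ranged from 3080 to 4193 over the settings that kept all libraries, and from 3392 to 3746 when 1 of the 12 was left out. Of 50 genes named by the rule that differed between the lines, 44 to 50 kept their call and 0 changed sign. The filter of at least 10 counts in every library removes genes silent at a stage, and 7 transcription factors were called lower with it, against 12.

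Of the 92 named genes tested, none that was called changed sign in any alternative, whereas the uncalled ABA2, VDE1, AAO3 and AAO2, with changes near 0, did so in some, and 80 to 92 kept their side of the threshold (80 of the 82 still tested under the strict filter). Besides the genes given above, the adjusted p of CNGC1 was not available from DESeq2. The median change (log2) over all genes became -0.04 with RLE factors and 0.06 with library size alone. With single counts near the floor of 3, changes of genes below about 1 CPM in both groups were poorly resolved at this depth.

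Replicate numbers are shared between the groups, but nothing in the labels ties fruits of the same number. For this reason the numbers were not taken as pairs. Deviations from the group means correlated at 0.107, 0.004 and 0.0898 for the 3 same-numbered pairs and at -0.122 to 0.0714 for the other pairs. With 3 replicates per group, set against their own mean, these values cannot decide whether fruits were paired. With the replicate block, 6905 genes were called in B-14 and 3665 differed between the lines.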
